A study of Mus musculus with 12 samples.

Results

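The DNA replication machinery is described here as 51 genes whose protein products prepare, start and carry out the copying of chromosomes. The genes were given as a list of symbols, and each symbol was looked up in the deposited tables. All 51 were found among the 55487 rows of each table, and all 51 reached a mean of at least 1 TPM (a transcript level corrected for length and scaled to the same total in every library), which was the minimum for testing. They fall into 9 steps: 9 genes of origin recognition and licensing, 6 of the MCM helicase, 8 of helicase activation, 8 polymerase and primase subunits, 6 of the sliding clamp and its loader, 5 of single-strand binding and Okazaki fragment joining, 5 of nucleotide supply and uracil removal, 3 of fork protection and 1 that binds histone mRNA.

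The RNA came from mouse G1E-ER4 cells, erythroid progenitors without endogenous GATA1 that instead carry a form of it switched on by estradiol. The study combined a knockdown of ZIP10, a zinc importer encoded by Slc39a10, with DTPA, a chelator that lowers zinc outside the cell. All cultures were transfected with siRNA on 2 occasions, were induced to differentiate with 100 nM β-estradiol and were harvested 24 h later. The 4 groups were siZIP10 plus 25 µM DTPA (called both treatments below), siZIP10, siControl plus 25 µM DTPA, and siControl, each labelled as 3 biological replicates. One siRNA label stands for the knockdown, with no rescue, DTPA also binds other metals, and neither zinc nor ZIP10 protein was part of the values used here. In all 55487 rows the table labelled siControl plus DTPA replicate 3 repeated that of siZIP10 replicate 1, so it was left out, and siControl plus DTPA had n = 2 while the other groups had n = 3.

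Replication begins when the origin recognition complex, CDC6 and CDT1 load rings of MCM2 to MCM7 onto DNA before S phase. CDC7 with DBF4, together with CDC45 and the GINS complex, then turns those rings into moving helicases, and polymerases α, δ and ε copy the strands behind them with help from the PCNA clamp, RPA and the enzymes that join Okazaki fragments. Many of these genes are transcribed at the G1 to S transition under E2F factors. Erythroid progenitors pass through a limited number of rapid divisions while they start to make haemoglobin and leave the cell cycle as they mature.

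The 11 libraries held between 19.6 and 24.7 M reads, as recovered from the steps in the low TPM values. Within the same group their log2 values correlated at 0.988 to 0.991 across genes, against 0.939 to 0.986 between groups, and genes are not independent replicates. Slc39a10 stood at 5.36, 4.93 and 5.02 TPM with both treatments, 0.539, 0.507 and 0.837 TPM with siZIP10, 22.0 and 20.3 TPM with siControl plus DTPA and 2.78, 2.31 and 2.78 TPM with siControl. The knockdown lowered this transcript within each zinc condition, but DTPA raised it, so its level with both treatments lay above that of siControl. Erythroid markers summed to 34721 to 48428 TPM in every library, and markers of other blood lineages, some listed at 0 and some present at low levels, are given with the last results. Transcripts of the mitochondrial ribosomal RNAs made up 1.43% to 1.45% of TPM with both treatments, 0.372% to 0.421% with siZIP10, 0.335% to 0.352% with siControl plus DTPA and 0.262% to 0.282% with siControl. Nuclear protein-coding genes made up 77.3% to 79.6% with both treatments, 82.9% to 84.1% with siZIP10, 82.6% to 83.6% with siControl plus DTPA and 83.6% to 83.8% with siControl.

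With both treatments, replication transcripts were far lower than in siControl cells. Summed over the 51 genes, the level was 1094 ± 28.0 TPM with both treatments, 1752 ± 38.7 TPM with siZIP10, 1774 ± 10.0 TPM with siControl plus DTPA (n = 2) and 2546 ± 38.2 TPM in siControl (SD, n = 3 otherwise). Both treatments thus left 43.0% of the siControl level, siZIP10 68.8% and siControl plus DTPA 69.7%, and the libraries of the 2 single treatments overlapped. TPM is a share of the RNA in a bulk culture, so fewer replicating cells and less replication RNA per cell cannot be told apart.

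Of the 51 genes, 48 fell and 1 rose with both treatments against siControl, at a limma adjusted p under 0.05. Over all 11379 genes tested, 39.9% fell and 26.7% rose in that comparison, 66.6% in all. The median difference was -1.23 on the log2(TPM + 1) scale for the 51 genes and -0.08 for all genes tested. After rescaling to nuclear protein-coding genes, the median for all genes tested was 0.01. With siZIP10 alone, 43 of the 51 fell and 0 rose, while 17.5% of all genes fell and 13.1% rose (30.6% in all); the medians were -0.63 and -0.01. With DTPA alone, 43 of the 51 fell and 0 rose, while 18.8% of all genes fell and 9.98% rose (28.8% in all); the medians were -0.51 and -0.04. These 3 comparisons share the siControl libraries. Genes that rose made up 40.1% of all calls with both treatments, 42.9% with siZIP10 and 34.7% with DTPA, and after quantile normalization 50.2%, 54.3% and 51.1%, while none of the 51 was called higher with either single treatment there. The highest differences among the 51 were 0.02 for Orc4 with siZIP10 and 0.05 for Rfc2 with DTPA, neither past the threshold.

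**Figure D1:**
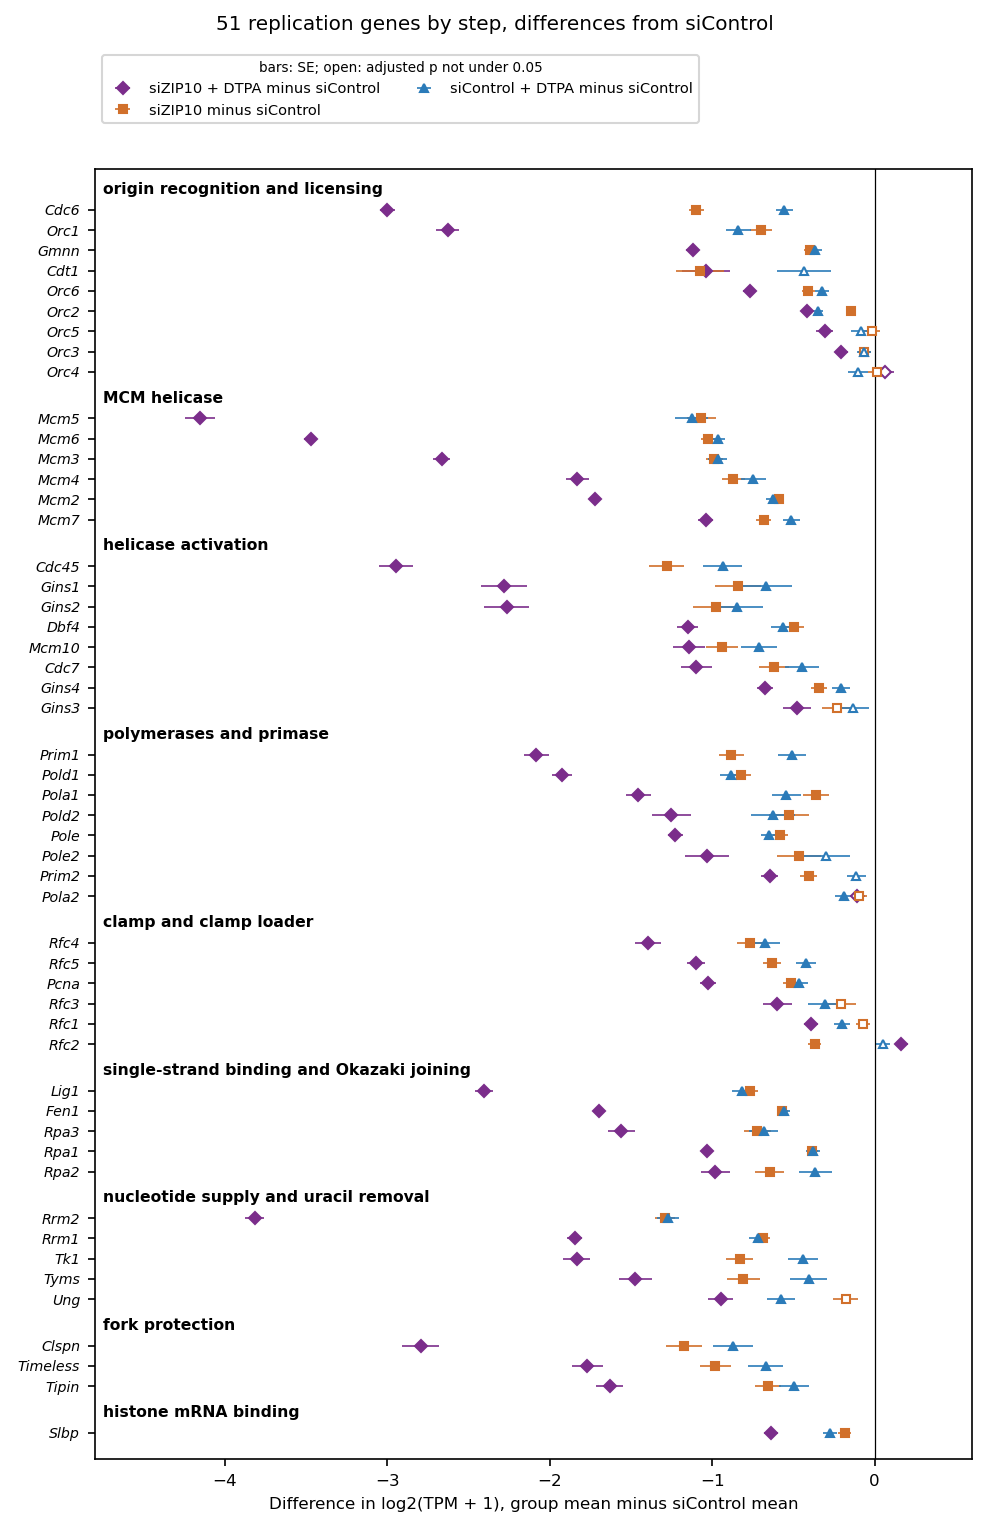
Differences in log2(TPM + 1) from siControl for the 51 genes, grouped by step, as group mean minus siControl mean with the SE as a bar; filled symbols passed an adjusted p of 0.05. With both treatments (diamonds) the values ran between -4.15 for Mcm5 and 0.16 for Rfc2, and in most rows they lie left of siZIP10 (squares) and siControl plus DTPA (triangles).

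Expressed as a percentage of siControl, the median gene stood at 38.2% with both treatments, 62.8% with siZIP10 and 67.9% with siControl plus DTPA. With both treatments 38 of the 51 genes were under 50% of siControl, 16 under 25% and 5 under 10%. Those 5 were Mcm5, Rrm2, Clspn, Mcm6 and Cdc45. No gene was under 25% with either single treatment, and 11 genes with siZIP10 and 3 with siControl plus DTPA were under 50%. The steps differed in their summed levels with both treatments. Nucleotide supply stood at 17.7% of siControl, the MCM helicase at 20.5%, fork protection at 25.3% and single-strand binding with Okazaki joining at 33.6%. Polymerases stood at 50.2%, licensing at 60.9%, with helicase activation between them, the clamp and its loader at 63.1% and Slbp at 63.5%. A step's sum is led by its most abundant genes, and in licensing Orc2, whose exons overlap those of Nif3l1, was the most abundant.

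The promoters of 4 genes are printed: Mcm5 and Rrm2 fell most with both treatments on the log2 scale, and Orc4 and Pola2 differed least in size and were the 2 genes not called. Each is the RefSeq sequence of build GRCm38.p6, with 250 bases before and 50 after the gene start, written 5′ to 3′ on the gene's strand. Capitals mark matches to 4 words that form the core of E2F sites and were searched on both strands. One pair of words was TTTCCCG or TTTCGCG, and the other pair of words was TTTGCCG or else TTTGGCG.
Mcm5, chr8:75109259-75109558, plus strand: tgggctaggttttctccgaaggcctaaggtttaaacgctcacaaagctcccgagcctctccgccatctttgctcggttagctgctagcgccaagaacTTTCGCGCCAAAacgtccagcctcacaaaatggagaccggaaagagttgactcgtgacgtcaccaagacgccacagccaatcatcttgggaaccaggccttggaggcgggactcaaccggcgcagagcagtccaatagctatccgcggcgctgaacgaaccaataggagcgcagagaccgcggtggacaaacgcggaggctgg
Rrm2, chr12:24708004-24708303, plus strand: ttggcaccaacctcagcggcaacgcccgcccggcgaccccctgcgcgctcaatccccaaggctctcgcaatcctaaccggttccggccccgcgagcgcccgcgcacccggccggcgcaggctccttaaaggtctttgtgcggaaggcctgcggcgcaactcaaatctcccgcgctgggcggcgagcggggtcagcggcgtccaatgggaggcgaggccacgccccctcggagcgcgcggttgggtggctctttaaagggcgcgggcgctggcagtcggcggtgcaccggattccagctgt
Orc4, chr2:48950032-48950331, minus strand: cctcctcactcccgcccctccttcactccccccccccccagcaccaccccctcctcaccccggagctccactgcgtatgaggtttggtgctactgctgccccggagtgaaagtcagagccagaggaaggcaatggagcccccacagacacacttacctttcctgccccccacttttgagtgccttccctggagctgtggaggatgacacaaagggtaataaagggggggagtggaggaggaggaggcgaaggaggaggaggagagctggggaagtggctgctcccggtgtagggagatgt
Pola2, chr19:5964157-5964456, minus strand: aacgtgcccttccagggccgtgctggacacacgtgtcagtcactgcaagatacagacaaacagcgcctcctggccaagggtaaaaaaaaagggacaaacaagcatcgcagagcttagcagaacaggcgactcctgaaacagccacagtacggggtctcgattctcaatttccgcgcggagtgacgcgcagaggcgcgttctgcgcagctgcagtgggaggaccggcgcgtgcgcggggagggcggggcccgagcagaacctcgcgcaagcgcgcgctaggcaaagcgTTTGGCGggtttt

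The Mcm5 promoter held 2 overlapping matches, 153 and 148 bases before the gene start and on opposite strands, which together form the capital run TTTCGCGCCAAA. Pola2 held 1 match, 37 bases after its start, and Rrm2 held none in this window. Orc4 has 3 promoter entries, of which the one printed held none and another held a match. Of the 51 genes 42 have at least one entry in the RefSeq table, 51 entries in all, and 21 of those entries (41.2%), each from a different gene, held an E2F word. Among all 32851 promoters of that length 6.70% did. The letters CCAAT occurred in 52.9% of the entries of these genes and in 37.4% of all promoters, and the GC box GGGCGG in 70.6% and 35.7%, each read on both strands. Genes with an E2F word had a median difference of -1.45 with both treatments and those with an entry but no word -1.15 (21 genes each), a description of letters that does not show binding.

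Among the 9 genes of origin recognition and licensing, 8 fell with both treatments, 6 with siZIP10 and 5 with siControl plus DTPA, and none rose. Cdc6, the ATPase that helps the origin recognition complex load MCM rings, had 7.03, 6.90 and 7.56 TPM with both treatments, 30.9, 28.8 and 28.8 TPM with siZIP10, 44.2 and 42.5 TPM with siControl plus DTPA and 66.7, 64.0 and 62.1 TPM in siControl. The 4 groups did not overlap. The difference from siControl was -3.00 with both treatments (SE 0.05, limma adjusted p = 5.13e-12), -1.10 with siZIP10 and -0.56 with DTPA. Orc1, the subunit of the origin recognition complex whose level is known to follow the cell cycle, had 2.95, 2.94 and 2.57 TPM with both treatments, 14.1, 12.4 and 14.3 TPM with siZIP10, 11.9 and 12.5 TPM with siControl plus DTPA and 22.2, 22.0 and 23.6 TPM in siControl. The 2 single treatments overlapped for Orc1, and both lay below siControl and above both treatments together.

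The other origin recognition subunits moved much less. Orc4 had 17.6, 17.7 and 18.4 TPM with both treatments, 15.9, 17.3 and 18.9 TPM with siZIP10, 16.2 and 15.6 TPM with siControl plus DTPA and 17.6, 17.1 and 16.7 TPM in siControl, and it passed the threshold in none of the 6 comparisons. With both treatments its difference was 0.06, and 3 other scalings and voom on recovered reads called it higher, at 0.15 to 0.16. Orc3 and Orc5 stood at 86.3% and 79.9% of siControl with both treatments and passed the test only there among the 3 comparisons with siControl. Orc2 and Orc6, also subunits of the complex, fell with both treatments to 74.8% and 58.2% and also fell with each single treatment. Cdt1, the partner of CDC6 in loading, stood at 2.64 to 3.68 TPM with both treatments and 2.21 to 3.44 TPM with siZIP10, against 6.52 to 8.33 TPM in siControl. Its level was therefore about as low with the knockdown alone (40.8% of siControl) as with both treatments (41.8%), while 4.80 and 5.52 TPM with siControl plus DTPA did not pass the test (adjusted p = 0.0763). Gmnn, which encodes geminin, the inhibitor of CDT1, fell to 45.5% with both treatments, 75.9% with siZIP10 and 77.3% with siControl plus DTPA.

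All 6 subunits of the MCM2-7 helicase, the ring that unwinds DNA at the fork, fell in each of the 3 comparisons with siControl. Mcm5 had 5.01, 4.07 and 5.78 TPM with both treatments, 53.9, 47.1 and 46.8 TPM with siZIP10, 46.5 and 47.8 TPM with siControl plus DTPA and 104, 104 and 104 TPM in siControl. Each single treatment left between 45.3% and 47.4% of siControl and both together left 4.76%, the lowest share of the 51 genes. The log2 difference with both treatments was -4.15 (SE 0.09, limma adjusted p = 5.17e-11), against -1.07 with siZIP10 and -1.13 with DTPA. Mcm6 had 3.04, 2.89 and 3.15 TPM with both treatments, 21.0, 20.9 and 20.9 TPM with siZIP10, 21.4 and 22.3 TPM with siControl plus DTPA and 44.5, 42.8 and 43.7 TPM in siControl. It stood at 6.93% of siControl with both treatments, 48.0% with siZIP10 and 50.1% with siControl plus DTPA, and the groups did not overlap.

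Mcm7 changed least within the ring. It had 32.4, 32.6 and 33.3 TPM with both treatments, 44.8, 39.5 and 42.7 TPM with siZIP10, 46.6 and 48.9 TPM with siControl plus DTPA and 70.0, 69.1 and 66.2 TPM in siControl. The groups did not overlap, and the difference with both treatments was -1.04 (SE 0.05, adjusted p = 7.05e-09). Exons of Mcm7 overlap those of Ap4m1, Cops6, Mir25 and Mir93, and since the strand setting of the counting is not given in the sources used here, some reads may belong to those genes. Mcm3, Mcm4 and Mcm2 lay between, at 15.0%, 26.6% and 29.4% of siControl with both treatments.

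**Figure D2:**
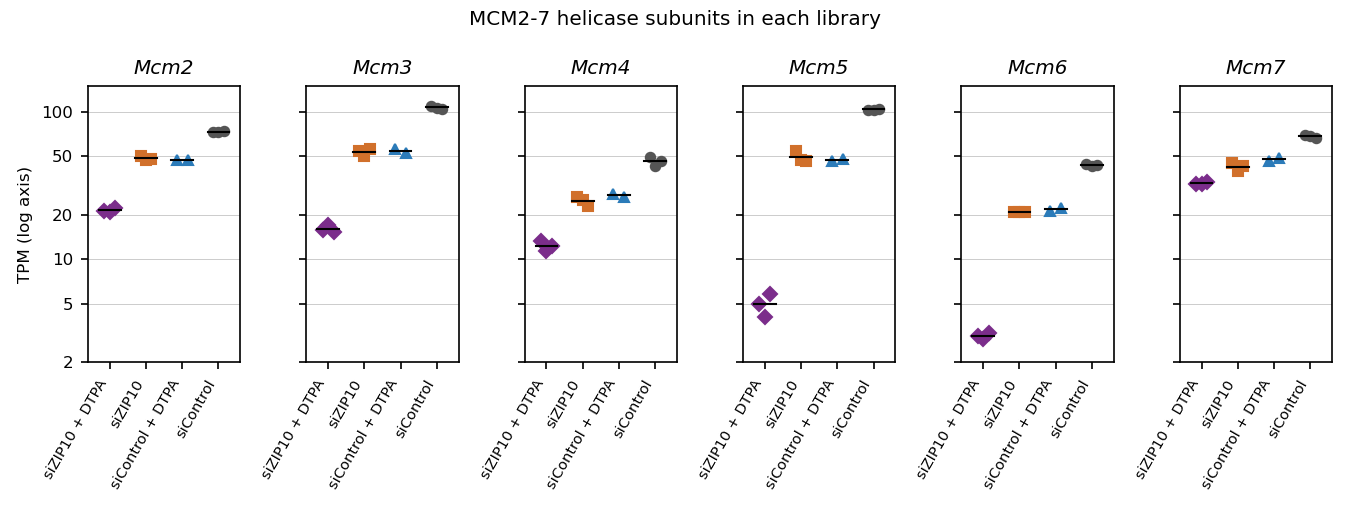
TPM of the 6 MCM2-7 subunits in each library on a log axis, with a line at each group mean (siControl plus DTPA n = 2, other groups n = 3). The subunits lie within a narrow band in siControl and spread apart with both treatments, where Mcm5 and Mcm6 are lowest and Mcm7 is highest.

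All 8 genes of helicase activation fell with both treatments, and 7 fell with each single treatment. Cdc45, the factor that joins MCM2-7 and GINS in the active helicase, had 0.848, 1.17 and 1.11 TPM with both treatments, 5.53, 4.62 and 6.38 TPM with siZIP10, 6.89 and 7.56 TPM with siControl plus DTPA and 14.3, 15.1 and 14.7 TPM in siControl. These levels rest on 22, 34 and 27 recovered reads with both treatments, against 382, 368 and 320 in siControl, and the groups did not overlap. The difference of -2.95 (SE 0.11, limma adjusted p = 1.69e-09) with both treatments is understated by the added 1 TPM, since the mean was 7.08% of siControl. The 4 GINS subunits form 1 complex but ranged widely. Gins2 and Gins1 stood at 11.3% and 16.8% of siControl with both treatments, and Gins4 and Gins3 at 62.5% and 70.4%. With DTPA alone the calls of Cdc7 (adjusted p = 0.107) and Gins1 (adjusted p = 0.0691) were lost without siControl plus DTPA replicate 2. That of Gins4 was lost, with an adjusted p of up to 0.149, without siControl plus DTPA replicate 1, without siControl replicate 2 or after quantile normalization.

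Gins3 changed least in this step, with 15.0, 12.1 and 14.9 TPM with both treatments, 16.7, 17.4 and 16.0 TPM with siZIP10, 18.1 and 17.9 TPM with siControl plus DTPA and 17.7, 20.7 and 21.3 TPM in siControl. It passed the test only with both treatments among the comparisons with siControl (-0.48, SE 0.09, adjusted p = 0.000567), and siControl plus DTPA overlapped siControl. Cdc7 and Dbf4, the kinase and its activator that fire origins, fell to 41.8% and 42.7% with both treatments. Mcm10, which helps activate the loaded helicase, stood at 2.42 to 3.30 TPM with both treatments, 3.25 to 3.52 TPM with siZIP10, 4.15 and 4.22 TPM with siControl plus DTPA and 6.90 to 8.03 TPM in siControl. The libraries of both treatments and of siZIP10 overlapped for Mcm10, and DTPA within the knockdown did not pass the test (-0.20, adjusted p = 0.105).

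Of the 8 polymerase and primase subunits, 7 fell with both treatments, 7 with siZIP10 and 6 with siControl plus DTPA. Prim1, the catalytic primase subunit that makes the RNA primer, had 1.78, 2.02 and 1.83 TPM with both treatments, 5.50, 5.36 and 5.97 TPM with siZIP10, 7.58 and 7.53 TPM with siControl plus DTPA and 12.1, 10.9 and 10.6 TPM in siControl. The 4 groups did not overlap, and the difference with both treatments was -2.08 (SE 0.08, limma adjusted p = 1.75e-09). Pola2, the accessory subunit of polymerase α, had 34.0, 33.4 and 33.4 TPM with both treatments, 35.0, 32.9 and 33.7 TPM with siZIP10, 33.5 and 30.1 TPM with siControl plus DTPA and 34.7, 36.1 and 38.0 TPM in siControl. Its difference of -0.11 with both treatments did not pass the test (adjusted p = 0.0691), though that of -0.19 with DTPA alone did (adjusted p = 0.0226). With both treatments Pola2 was called lower without siControl replicate 1 (adjusted p = 0.0382) or either siControl plus DTPA library. The call with DTPA alone was lost without siControl plus DTPA replicate 2 or siControl replicate 3, with an adjusted p of up to 0.222 over all alternatives.

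Polymerase α and primase act as 1 complex, and its other subunits Pola1 (the catalytic polymerase subunit) and Prim2 (the large primase subunit) stood at 31.1% and 62.7% of siControl with both treatments. Pold1, the catalytic subunit of the lagging-strand polymerase δ, fell to 24.3% with both treatments, 55.3% with siZIP10 and 52.9% with siControl plus DTPA. Pold2, its accessory subunit, stood at 35.4% with both treatments, 66.8% with siZIP10 and 60.7% with siControl plus DTPA. Pole and Pole2, of the leading-strand polymerase ε, stood at 40.3% and 43.5% with both treatments. For Pole2 the difference of -0.30 with DTPA alone did not pass the test (adjusted p = 0.173), and its call with siZIP10 was lost, with an adjusted p of up to 0.0893, without siControl replicate 1, without siZIP10 replicate 1 or 2, or with no filter on low values.

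In the clamp and clamp loader, 5 of 6 genes fell and 1 rose with both treatments; 4 fell with siZIP10 and 5 with siControl plus DTPA. Pcna, the ring that holds polymerases on DNA, stood at 48.3% of siControl with both treatments, 69.7% with siZIP10 and 72.0% with siControl plus DTPA. Rfc4, a small subunit of the replication factor C loader, had 14.5, 14.5 and 17.0 TPM with both treatments, 23.8, 25.1 and 23.7 TPM with siZIP10, 25.5 and 26.3 TPM with siControl plus DTPA and 44.2, 36.8 and 45.0 TPM in siControl. It fell most in this step (-1.39, SE 0.08, limma adjusted p = 6.36e-08), the groups did not overlap, and its exons overlap those of Eif4a2. Rfc5, Rfc3 and Rfc1, other subunits of the loader, stood at 44.3%, 64.0% and 75.9% with both treatments. With DTPA alone the call of Rfc3 was lost in 13 alternatives (adjusted p of up to 0.206) and that of Rfc1 without siControl plus DTPA replicate 2 (adjusted p = 0.0989).

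Rfc2, another subunit of the same loader, was the one gene of the 51 that rose against siControl. It had 39.4, 37.5 and 39.9 TPM with both treatments, 28.0, 25.7 and 26.1 TPM with siZIP10, 36.0 and 35.8 TPM with siControl plus DTPA and 34.9, 33.9 and 35.1 TPM in siControl. The difference was 0.16 with both treatments (SE 0.04, adjusted p = 0.00377) but -0.37 with siZIP10 (adjusted p = 7.70e-05), and 0.05 with DTPA alone (adjusted p = 0.451). Within the knockdown, DTPA raised Rfc2 by 0.53 (adjusted p = 7.56e-07), the one rise among the 51 genes in that comparison. The rise against siControl was lost (adjusted p = 0.0935) only with the repeated library kept under its siControl plus DTPA label. Exons of Rfc2 overlap those of Lat2, so the split of reads between them is uncertain without the strand setting.

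All 5 genes of single-strand binding and Okazaki fragment joining fell in each comparison with siControl. Lig1, the ligase that seals Okazaki fragments, had 17.3, 17.1 and 19.3 TPM with both treatments, 60.5, 55.5 and 57.0 TPM with siZIP10, 56.6 and 55.0 TPM with siControl plus DTPA and 93.9, 98.6 and 104 TPM in siControl. The single treatments overlapped each other and neither overlapped siControl or both treatments together. The difference with both treatments was -2.40 (SE 0.05, limma adjusted p = 6.28e-11). Fen1, the nuclease that trims the flap before ligation, stood at 30.5% with both treatments, 67.3% with siZIP10 and 67.9% with siControl plus DTPA. Rpa1, Rpa2 and Rpa3 form the complex that coats single strands. Rpa2 had 13.2, 13.0 and 11.6 TPM with both treatments, 18.8, 15.2 and 14.7 TPM with siZIP10, 20.7 and 18.9 TPM with siControl plus DTPA and 26.4, 27.2 and 23.9 TPM in siControl. It changed least in this step (-0.98, SE 0.09, adjusted p = 3.02e-06), and its fall with DTPA alone (-0.37, adjusted p = 0.0205) was lost, with an adjusted p of up to 0.146, without any one of siControl replicates 1 and 2 and siControl plus DTPA replicate 2.

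All 5 genes of nucleotide supply and uracil removal fell with both treatments and with siControl plus DTPA, and 4 with siZIP10. Rrm2, the subunit of ribonucleotide reductase that carries the radical and limits its activity in S phase, had 5.07, 4.77 and 5.57 TPM with both treatments, 37.0, 33.4 and 32.6 TPM with siZIP10, 33.6 and 36.1 TPM with siControl plus DTPA and 87.6, 85.1 and 83.4 TPM in siControl. The 2 single treatments overlapped, at 40.2% and 40.8% of siControl, and both together left 6.02%. The difference with both treatments was -3.82 (SE 0.06, limma adjusted p = 5.69e-12). Rrm1, the large subunit of the same enzyme, stood at 26.7% with both treatments. Tk1, a thymidine kinase, and Tyms, thymidylate synthase, stood at 20.7% and 22.9% with both treatments, 51.7% and 48.3% with siZIP10 and 70.8% and 70.4% with siControl plus DTPA. The call of Tyms with DTPA alone was lost, with an adjusted p of up to 0.120, without siControl replicate 1 or 3 or either siControl plus DTPA library.

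Ung, the glycosylase that removes uracil from new DNA, changed least in this step. It had 5.46, 5.06 and 6.15 TPM with both treatments, 10.1, 9.85 and 10.6 TPM with siZIP10, 7.10 and 7.80 TPM with siControl plus DTPA and 10.7, 11.9 and 12.2 TPM in siControl. DTPA alone lowered it by a difference of -0.58 (adjusted p = 0.000621), while that of -0.18 with siZIP10 did not pass the test (adjusted p = 0.112). Whether the 2 single treatments differed from each other was not tested for any gene.

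The 3 genes of fork protection fell in every comparison with siControl. Clspn, which encodes claspin, a fork and checkpoint adaptor, had 0.658, 0.602 and 0.723 TPM with both treatments, 3.96, 3.50 and 5.01 TPM with siZIP10, 5.04 and 5.55 TPM with siControl plus DTPA and 11.0, 10.6 and 9.97 TPM in siControl. That was 35, 36 and 36 recovered reads with both treatments, against 604, 529 and 444 in siControl, or 6.28% of the siControl level. Its log2 difference was -2.80 (SE 0.11, limma adjusted p = 3.40e-09). Tipin, which with TIMELESS keeps helicase and polymerase together, had 13.4, 14.0 and 14.0 TPM with both treatments, 26.1, 31.6 and 26.8 TPM with siZIP10, 32.9 and 30.1 TPM with siControl plus DTPA and 50.3, 42.8 and 41.7 TPM in siControl. The single treatments overlapped for Tipin, and both treatments together lay below them (-1.63 against siControl, adjusted p = 2.45e-08). Timeless stood at 18.4% of siControl with both treatments, 43.1% with siZIP10 and 57.3% with siControl plus DTPA.

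Slbp, which binds the stem-loop of histone mRNAs, had 28.6, 26.3 and 28.6 TPM with both treatments, 38.0, 38.4 and 39.1 TPM with siZIP10, 34.9 and 37.2 TPM with siControl plus DTPA and 44.4, 43.5 and 43.5 TPM in siControl. The differences were modest, -0.64 with both treatments (SE 0.04, limma adjusted p = 1.45e-07), -0.18 with siZIP10 and -0.27 with DTPA, and the 4 groups did not overlap.

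Subunits of the same complex did not keep their proportions. The ratio of the most to the least abundant MCM2-7 subunit was 10.6 to 11.3 with both treatments, 2.41 to 2.69 with siZIP10, 2.37 to 2.61 with siControl plus DTPA and 2.40 to 2.49 in siControl. The single treatments thus left the spread of the ring close to that of siControl, and only with both treatments did its libraries lie apart from all others. For polymerase α-primase the ratio was 16.5 to 19.1 with both treatments, 5.64 to 6.37 with siZIP10, 4.10 to 4.41 with siControl plus DTPA and 2.92 to 3.61 in siControl. For GINS it was 74.5 to 120 with both treatments, 23.8 to 39.6 with siZIP10, 27.7 to 31.6 with siControl plus DTPA and 16.6 to 18.2 in siControl, so that each single treatment also lay apart from siControl. Its lowest subunit, Gins2, rested on 24, 38 and 26 reads with both treatments, against 249, 251 and 207 in siControl. For the origin recognition complex it was 79.7 to 94.6 with both treatments, 20.4 to 22.5 with siZIP10, 19.8 to 21.4 with siControl plus DTPA and 18.5 to 18.8 in siControl. Orc2 was its most abundant subunit in each group. Exons of Orc2 overlap those of Nif3l1, so some of its reads may belong to that gene. For RPA the ratio, at 4.42 to 5.39 with both treatments, overlapped 4.53 to 5.12 in siControl. It was 5.12 to 6.55 with siZIP10 and 4.68 to 5.01 with siControl plus DTPA. The RPA ratio follows only Rpa1 and Rpa2, at 48.5% and 48.8% of siControl with both treatments, while Rpa3 stood at 32.6%. For replication factor C it was 3.92 to 5.53 with both treatments and 3.80 to 3.92 in siControl. That ratio follows only Rfc1 and Rfc3, and between other subunits the proportions shifted, with Rfc4 at 36.6% and Rfc2 at 112% of siControl with both treatments. TPM divides by a gene's exon length as annotated, so these ratios between genes depend on the annotation, and the subunits that set them can differ between groups: Mcm7 was the most abundant of the ring with both treatments and Mcm3 in siControl.

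**Figure D3:**
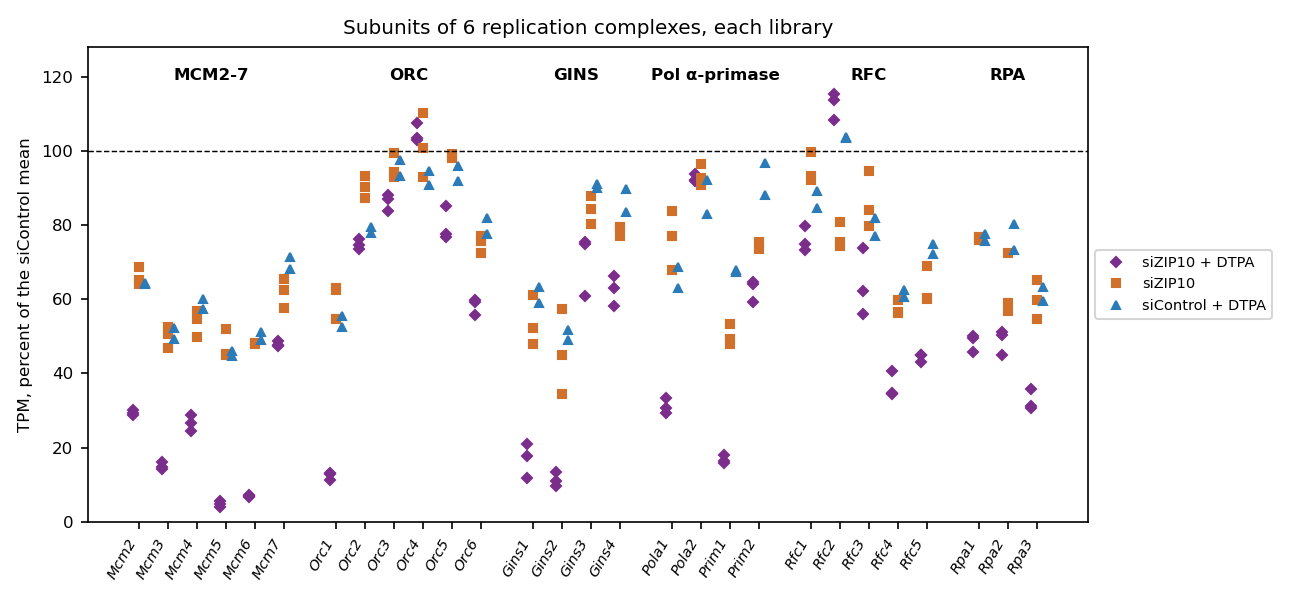
TPM of the subunits of 6 complexes in each treated library, as a percentage of the siControl mean (dashed line at 100%). With both treatments (diamonds) the subunits of MCM2-7 spread from 4.76% for Mcm5 to 47.9% for Mcm7, and those of the origin recognition complex from 12.5% for Orc1 to 105% for Orc4, as means; the RPA subunits lie closer together.

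Each treatment also lowered most of these genes on top of the other. DTPA within the knockdown (both treatments against siZIP10) lowered 46 of the 51 and raised 1, Rfc2, while 37.3% of all genes fell and 23.1% rose (60.4% in all), with a median of -0.67 for the 51 and -0.06 for all genes. The 4 not called were Orc4, Cdt1, Mcm10 and Pola2. The knockdown within DTPA (both treatments against siControl plus DTPA) lowered 47 and raised 0, while 31.7% of all genes fell and 21.3% rose (53.1% in all), with medians of -0.72 and -0.04. The 4 not called there were Orc2, Orc4, Pola2 and Rfc2. Genes that rose made up 38.2% of all calls for DTPA within the knockdown, 40.2% for the knockdown within DTPA and 37.1% for the interaction, and 50.2%, 53.2% and 54.3% after rescaling to nuclear protein-coding genes.

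The interaction, the DTPA difference in siZIP10 cells minus the DTPA difference in siControl cells, was called (adjusted p under 0.05) below 0 for 20 of the 51 genes and above 0 for 2. Over all genes tested it was called below 0 in 20.4% and above 0 in 12.0% (32.4% in all), with a median of -0.19 for the 51 and -0.02 for all genes. In the scaling to nuclear protein-coding genes the calls among the 51 were 19 below and 5 above, and with voom on recovered reads 21 and 5. The median interaction over all genes was 0.05 in that scaling and 0.01 with voom. The most negative interactions were those of Mcm5 (-1.96, SE 0.14, limma adjusted p = 2.95e-06), Mcm6 (-1.48), Cdc6 (-1.35), Rrm2 (-1.26) and Orc1 (-1.09). For these 5 genes DTPA changed log2(TPM + 1) by -0.56 to -1.27 in siControl cells and by -1.90 to -3.09 in siZIP10 cells. The 2 above 0 were Mcm10 (0.51) and Rfc2 (0.48).

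By step, called interactions were negative in 4 of 6 MCM genes, 3 of 5 nucleotide genes, 3 of 5 Okazaki and single-strand binding genes, 2 of 3 fork protection genes, 3 of 9 licensing genes, 2 of 8 helicase activation genes, 2 of 8 polymerase genes and Slbp, whose call was lost in 14 alternatives. No gene of the clamp and its loader had a negative one. Over all genes tested 20.4% had a negative call, a share close to those of helicase activation and polymerases, and the steps hold few genes. As a share of siControl, 42 of the 51 genes were lower with both treatments than the product of the shares left by each treatment alone, a count with no threshold or test, in which some lay close to the product (Pole at 40.3% against 40.8%). The same held for 6078 of the 11362 tested genes with a siControl level above 0 (53.5%). Mcm5 stood at 4.76% against a product of 21.5%, Rrm2 at 6.02% against 16.4% and Mcm6 at 6.93% against 24.0%. The 9 others were Orc2, Orc4, Cdt1, Mcm7, Mcm10, Pola2, Rfc2, Rfc4 and Rpa2. For genes of few TPM the added 1 TPM shrinks the interaction: it was -0.73 for Cdc45 and -0.75 for Clspn here, and -1.32 and -1.60 by voom on recovered reads.

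**Figure D4:**
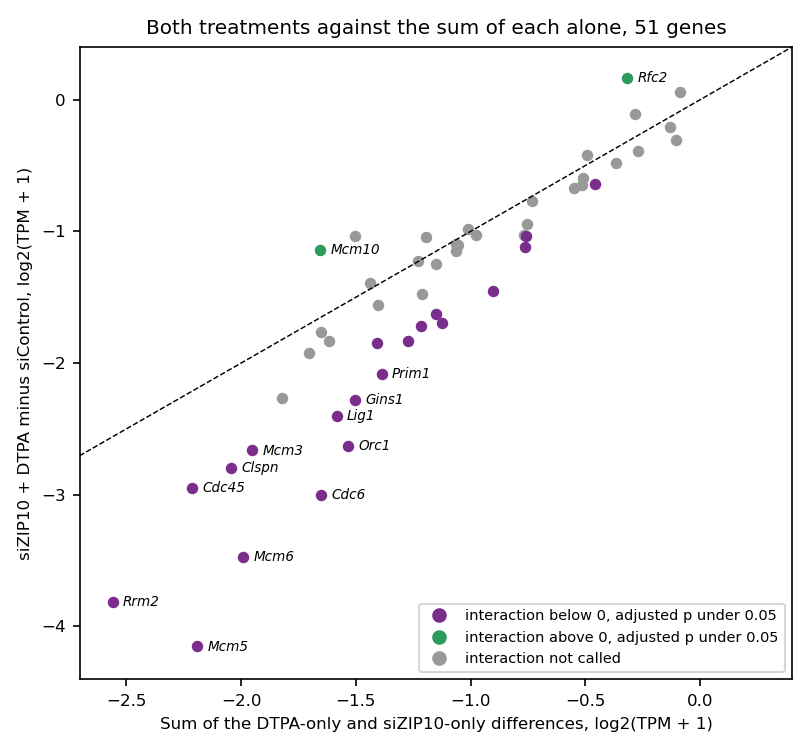
Difference of both treatments from siControl against the sum of the differences of each treatment alone, in log2(TPM + 1), 1 point for each of 51 genes; the dashed line marks equality. Points below the line, farthest for Mcm5 and Mcm6, have a negative interaction, and those coloured passed an adjusted p of 0.05 (20 below and 2 above).

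A further 55 replication genes that are not among the 51 were read from a separate list, and 50 reached the minimum level. With both treatments 40 fell and 3 rose (median -0.56), with siZIP10 27 fell and 3 rose (-0.24), and with DTPA 29 fell and 1 rose (-0.26). Among all genes tested, 39.9% fell and 26.7% rose with both treatments, 17.5% and 13.1% with siZIP10, and 18.8% and 9.98% with DTPA. The interaction was called below 0 for 9 of the 50 and above 0 for 5, with a median of -0.09. Those shares were 20.4% and 12.0% over all genes tested. Of the 50, the steepest falls with both treatments were those of Ticrr, which acts in origin firing (-3.20), Chtf18, of an alternative clamp loader (-2.14), and Chaf1a, a chromatin assembly factor that follows PCNA (-2.06). Ticrr had 0.445, 0.372 and 0.447 TPM with both treatments and 12.1, 11.7 and 12.4 TPM in siControl, and it also led the list with siZIP10 (-1.18) and with DTPA (-1.12). Among the genes that rose with both treatments were Pold4, a small polymerase δ subunit (0.24), and Tk2, the mitochondrial thymidine kinase (0.65). Cdkn1a, the CDK inhibitor p21, rose with DTPA alone (0.23) and with siZIP10 alone (0.19) and fell with both (-0.11).

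Mitotic genes moved with the replication genes. All 6 listed, Mki67, Top2a, Ccnb1, Cdk1, Plk1 and Aurka, fell in each comparison with siControl, with medians of -3.88 with both treatments, -1.31 with siZIP10 and -1.01 with DTPA. Their summed level was 38.4 to 42.6 TPM with both treatments, 299.8 to 308.9 TPM with siZIP10, 340.8 to 348.0 TPM with siControl plus DTPA and 668.3 to 700.2 TPM in siControl. The interaction was called below 0 for all 6 mitotic genes, and in 20.4% of all genes tested. Its median was -1.51 for these 6, against -0.19 for the 51 replication genes. Markers of other lineages also moved. The 3 of 4 megakaryocyte markers that could be tested rose with both treatments, and the 4 summed to 55.5 to 57.1 TPM there against 14.1 to 16.0 TPM in siControl. The 4 mast cell markers, with Ms4a2 and Mcpt8 at 0, summed to 20.7 to 22.6 TPM with both treatments against 0.832 to 1.26 TPM in siControl, and Hdc, the 1 that could be tested, rose by 3.43. The 4 myeloid markers, with Mpo and Elane at 0, summed to 5.51 to 6.66 TPM with both treatments, 2.74 to 4.96 TPM with siZIP10, 2.91 to 2.92 TPM with siControl plus DTPA and 2.05 to 3.14 TPM in siControl, and Cd68, the 1 tested, rose by 0.96 with both treatments (adjusted p = 0.000457). The 3 lymphoid markers summed to 2.38 to 3.15 TPM with both treatments and 0.296 to 1.08 TPM in siControl, and the 1 tested rose by 1.17 (adjusted p = 0.00132). Of 8 erythroid markers, 6 fell and 2 rose with both treatments. The falls were those of Slc4a1 (-4.24), Hba-a1 (-1.49), Epor (-1.08), Gata1 (-1.02), Tfrc (-0.31) and Klf1 (-0.29). Hbb-bs (0.32) and Alas2 (0.22) rose. Among the 6 housekeeping genes with both treatments, Gapdh (-0.65), Pgk1 (-0.54) and Ppia (-1.11) fell and Hprt rose (0.19). Actb (-0.04) and Tbp (-0.10) did not pass the test. The part of these shifts in the replication results was not tested.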

How the data were processed

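Per the labels' protocols, a stranded mRNA kit was used. The values deposited by the authors are TPM per gene. The submitters' processing notes name HISAT2 2.1.0, Trimmomatic 0.33, featureCounts, FastQC and edgeR, with the mm10 build. The sources used here give neither annotation nor strand setting. Gene positions, exon lengths and overlaps come from GENCODE mouse release M21 on the same build, and 53170 names matched 1 gene there.

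The 11379 genes that averaged at least 1 TPM over 11 libraries were tested as log2(TPM + 1), which understates changes of low genes, with limma 3.58.1 (trend on mean level, 4 group means, 7 residual degrees of freedom) in R 4.3.3. In each of 6 comparisons, p-values (two-sided) were adjusted over all tested genes by Benjamini-Hochberg, with a threshold of 0.05. Reads were recovered from TPM times exon length: 98.9% to 99.1% of values up to 20 reads were whole within 0.1 read. A limma-voom fit on those reads of 11149 genes called 7775 genes with both treatments, 4013 with siZIP10 and 3808 with DTPA. The limma fit was tested on simulated data. Same-numbered libraries did not deviate together, so replicate numbers were not used as pairs; p-values measure the spread between labelled biological replicates.

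The 51 genes, the other lists, the promoter words and the tests were chosen with earlier results of these data known. Values in every library are given for the genes with the largest and smallest difference with both treatments in each step, the 5 largest called interactions and genes called higher than siControl. Alternatives were pseudocount, filter, scaling, trend, replicate block, keeping the repeated library and leaving out each library.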

Additional observations from a re-analysis of the deposited data

Results flagged for a closer look

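For 22 of the 51 genes, the difference made by DTPA itself differed between siZIP10 and siControl cells by limma's interaction term (adjusted p under 0.05), and each is listed here as the DTPA difference in siZIP10 cells minus that in siControl cells, in log2(TPM + 1). Over all 11379 genes tested, 32.4% had such a call. The background share in the negative direction was 20.4%, against 20 of the 51 genes.

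In origin licensing the values were -1.35 for Cdc6, -1.09 for Orc1 and -0.36 for Gmnn. In the MCM helicase they were -1.96 for Mcm5, -1.48 for Mcm6, -0.71 for Mcm3 and -0.50 for Mcm2. In helicase activation they were -0.78 for Gins1, -0.73 for Cdc45 and 0.51 for Mcm10, and among polymerase and primase subunits -0.69 for Prim1 and -0.55 for Pola1. Rfc2, of the clamp loader, had 0.48.

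In single-strand binding and Okazaki joining the values were -0.82 for Lig1, -0.57 for Fen1 and -0.27 for Rpa1. In nucleotide supply they were -1.26 for Rrm2, -0.56 for Tk1 and -0.44 for Rrm1. In fork protection they were -0.75 for Clspn and -0.48 for Tipin, and Slbp had -0.18. The calls of Gins1 (adjusted p = 0.0648) and Tipin (adjusted p = 0.0647) were lost without siControl plus DTPA replicate 1. That of Mcm10 was lost without siControl replicate 1, without either siControl plus DTPA library, or with no filter on low values. That of Slbp was lost in 14 alternatives. Gins2 had an interaction of -0.44 that was not called here and was called by voom on recovered reads (-0.96, adjusted p = 0.00709).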

How the results depend on the processing

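The number of the 51 genes called stayed within 1.5 times its value in every alternative run. With both treatments 49 were called, 49 to 50 when 1 library was left out and 44 to 50 otherwise. With siZIP10 43 were called (42 to 44, and 38 to 44). With DTPA 43 were called (36 to 44, and 39 to 44). For DTPA within the knockdown 47 were called (46 to 47, and 44 to 47), for the knockdown within DTPA 47 (42 to 49, and 44 to 50), and for the interaction 22 (20 to 23, and 20 to 26). Signs of single genes were followed in the 3 comparisons with siControl and for the 22 called interactions, and there they turned only for uncalled values. Rfc2 with DTPA was -0.065 with the repeated library kept. With siZIP10, Orc4 ran between -0.044 and 0.072 and Orc5 between -0.040 and 0.018 when 1 library was left out, with Orc4 below 0 without siControl replicate 3 (-0.00195) or siZIP10 replicate 3 and Orc5 above 0 without siControl replicate 1, and Orc5 was 0.021 after quantile normalization. Of 15 pairs of same-numbered libraries 0 correlated above 0.1 in their deviations (-0.06 to 0.06), and 7 of 11 libraries correlated best with their own number. With the replicate block 49 genes were called with both treatments, 43 with siZIP10, 42 with DTPA, 46 for DTPA within the knockdown, 47 for the knockdown within DTPA and 21 for the interaction. With siControl plus DTPA at n = 2, leaving out one of its libraries left 1, assumed to vary like the other groups. At 22 to 36 reads per library, Cdc45 and Clspn with both treatments are limited by counting error.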
